A study of Mus musculus with 6 samples.

Results

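Captured methylated DNA was examined in mouse lung at testis-expressed copies of housekeeping genes. They are Rpl10l, Slc25a31, Pgk2, Pdha2, Tuba3a, Tuba3b, Gk2, Rbmxl2, Cstf2t and Ldhc, which are 10 of 21887 protein-coding genes on chromosomes 1 to 19, X and Y, and all 10 lie on autosomes. For each gene, peaks were collected that overlapped its mm10 span plus 1000 bp on each side, here called its window. Methylated fragments of whole-lung genomic DNA were captured with a methyl-CpG-binding kit and sequenced (MBD-seq), and each of 6 libraries had its own peak list. The groups were 3 transgenic mice (SPC-DNMTdelta3B/DG, spelled SPC-DNMTdeltaB/DG for replicate 2), which carry a deletion variant of the methyltransferase DNMT3B under the surfactant protein C (SPC) promoter, and 3 wild-type mice, all aged 12 to 16 months. The SPC promoter drives the transgene in alveolar type 2 cells, while all lung cells gave DNA. Which of several founder lines each transgenic animal came from, and the sex of the animals, are not given in the labels. DNA capture gives no expression level, so the tissue label could not be checked against expressed markers. A peak in whole lung cannot tell full methylation in some cells from partial methylation in all.

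Many housekeeping genes on the X chromosome have a second copy elsewhere in the genome that is used in male germ cells, at a stage when the X chromosome is silent. Such copies often arose by reverse transcription of a messenger RNA and then lack introns. In somatic tissue they are usually silent, and methylation of CpG dinucleotides at a start site is one known way to keep a germline gene silent. A promoter with few CpG dinucleotides offers a methyl-CpG-binding protein little to hold.

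The promoters shown here span the contrast found among the copies. Slc25a31, Rpl10l and Rbmxl2 had a peak over the promoter in nearly every library, while Cstf2t, with many CpG dinucleotides, and Pgk2, with few, had none. Each sequence is the 250 bases before the transcription start from RefSeq (GRCm38.p6, the assembly of mm10), written 5′ to 3′ on the gene's strand, with CpG dinucleotides in capitals.
Slc25a31 (chr3:40708621-40708870, plus strand): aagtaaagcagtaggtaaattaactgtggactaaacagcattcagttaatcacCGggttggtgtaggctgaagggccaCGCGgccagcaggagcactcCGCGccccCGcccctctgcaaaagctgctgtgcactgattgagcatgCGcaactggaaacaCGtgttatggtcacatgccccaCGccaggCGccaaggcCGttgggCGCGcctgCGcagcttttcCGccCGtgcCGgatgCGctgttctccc
Rpl10l (chr12:66284402-66284651, minus strand): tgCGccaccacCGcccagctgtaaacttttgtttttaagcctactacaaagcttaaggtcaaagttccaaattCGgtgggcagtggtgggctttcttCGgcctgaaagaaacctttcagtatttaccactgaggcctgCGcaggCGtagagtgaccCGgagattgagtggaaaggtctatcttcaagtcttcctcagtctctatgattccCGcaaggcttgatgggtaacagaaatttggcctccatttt
Rbmxl2 (chr7:107209195-107209444, plus strand): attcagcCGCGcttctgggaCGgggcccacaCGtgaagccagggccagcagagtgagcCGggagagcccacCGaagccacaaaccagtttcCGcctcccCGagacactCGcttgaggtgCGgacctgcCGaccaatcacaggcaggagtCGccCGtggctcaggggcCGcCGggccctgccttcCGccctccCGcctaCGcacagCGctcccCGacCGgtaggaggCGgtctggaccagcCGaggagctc
Cstf2t (chr19:31082591-31082840, plus strand): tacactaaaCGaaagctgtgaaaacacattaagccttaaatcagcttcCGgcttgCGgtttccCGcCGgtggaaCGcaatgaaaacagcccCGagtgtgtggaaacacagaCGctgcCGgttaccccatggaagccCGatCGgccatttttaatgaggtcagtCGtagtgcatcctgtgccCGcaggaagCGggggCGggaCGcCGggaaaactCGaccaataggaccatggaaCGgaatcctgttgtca
Pgk2 (chr17:40208610-40208859, minus strand): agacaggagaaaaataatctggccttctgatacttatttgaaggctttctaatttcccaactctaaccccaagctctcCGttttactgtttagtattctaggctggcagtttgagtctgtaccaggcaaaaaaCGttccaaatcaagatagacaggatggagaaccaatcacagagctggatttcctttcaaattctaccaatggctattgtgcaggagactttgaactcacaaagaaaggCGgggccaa
These 250 bases held 18 CpG dinucleotides for Slc25a31, 8 for Rpl10l, 23 for Rbmxl2, 19 for Cstf2t and 3 for Pgk2.

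Peak lists differed in length between libraries, and read depth is unknown. The transgenic lists held 120349, 116352 and 78952 peaks and the wild-type lists 60131, 111211 and 30640 peaks for replicates 1, 2 and 3. In the same order, a peak lay in the window of 67.5%, 67.6% and 58.4% of protein-coding genes in the transgenic lists and of 52.3%, 66.8% and 31.8% in the wild-type lists. Wild-type replicate 3 also had the narrowest peaks, with a median width of 197 bp against 376 to 460 bp in the other lists.

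Of the 10 copies, 6 had a peak in all 6 libraries and 3 had none in any library. The 6 were Rpl10l, Slc25a31, Pdha2, Tuba3a, Tuba3b and Rbmxl2. The 3 without a peak were Pgk2, Gk2 and Cstf2t, and Ldhc had a peak in 3 of 6 libraries. Among all protein-coding genes 28.2% had a peak in all 6 libraries and 26.3% had none, and among the 5034 with a span of at most 5000 bp these shares were 6.71% and 61.9%. Of the 10 copies 6 were that short, and 3 of these had a peak in all 6 libraries and 3 in none. The copies were chosen with earlier results of these data known, so comparisons with all genes, here and below, are only descriptive. When only peaks scoring at least the median of all lists pooled (96.3) were kept, 2 of the 10 copies had one in all 6 libraries. Scores are not scaled between lists, so this cutoff kept unequal shares of them. Per library, 7, 7 and 6 copies had a peak in transgenic and 6, 7 and 6 in wild-type replicates 1, 2 and 3. The map of peaks along the genes shows that the same stretches were captured in most libraries.

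**Figure D1:**
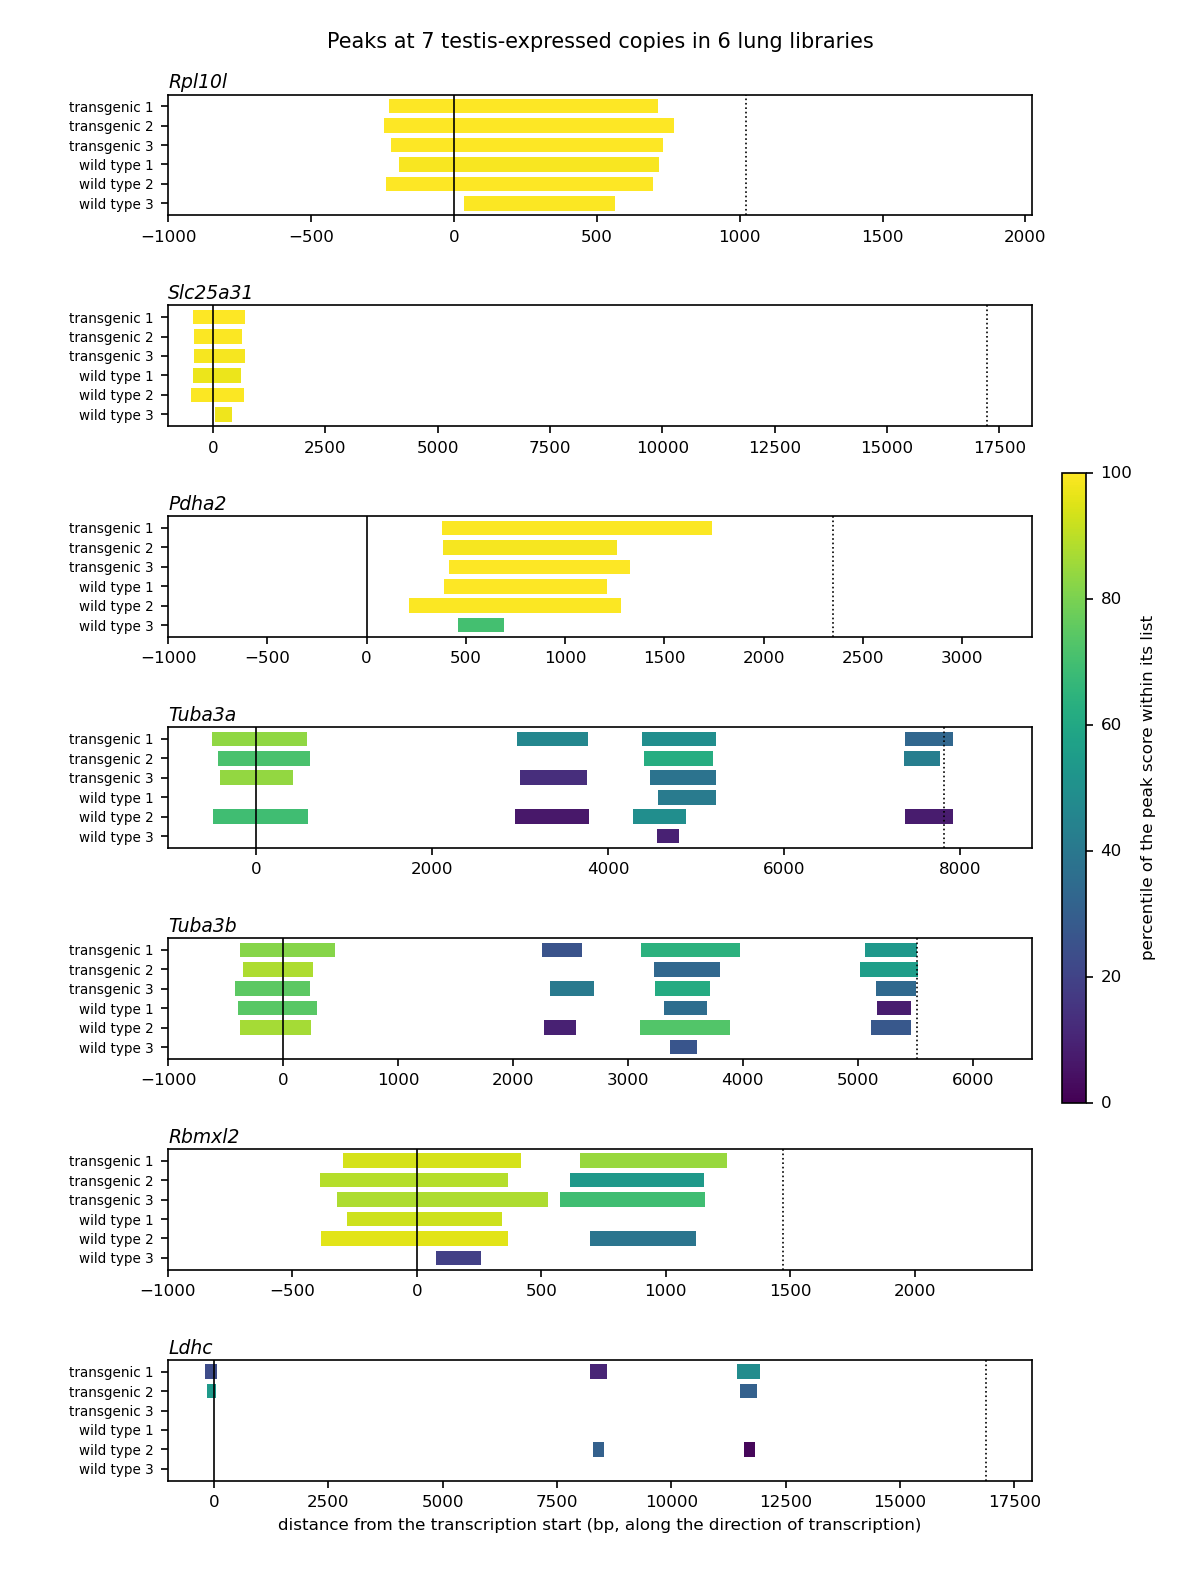
Peaks at the 7 copies that had any, by library (rows), against the distance in bp from the transcription start along the direction of transcription. The solid line marks the start, the dotted line the end of the gene span, and the colour is the percentile of the peak's score within its own list. The peaks of Rpl10l and Slc25a31 lie over the start in 5 libraries and just after it in wild-type replicate 3, at percentile 97 or above in all 6, and those of Pdha2 lie inside the gene.

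Rpl10l and Slc25a31 carried some of the highest-scoring peaks of every list. Rpl10l (chromosome 12, 66283379 to 66284401) encodes a copy of the X-linked ribosomal protein Rpl10, of the large subunit. Its single peak ranked 120, 186 and 95 in transgenic and 595, 186 and 235 in wild-type replicates 1, 2 and 3, by the score of the authors' peak caller. These ranks put it at percentile 99.0 or above of each list. Only 38 of 21887 protein-coding genes (0.174%) had a peak at or above percentile 99 in all 6 lists. The peak began 191 to 244 bp before the transcription start and ended 695 to 768 bp after it in 5 libraries, and in wild-type replicate 3 it ran from 35 to 562 bp after the start.

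Slc25a31 (chromosome 3, 40708871 to 40726094) encodes a mitochondrial ADP/ATP carrier of germ cells, also named Ant4. Its single peak ranked 328, 761 and 1121 in transgenic and 1766, 751 and 796 in wild-type replicates 1, 2 and 3. The lowest of these ranks was at percentile 97.1 of its list. Together with Rpl10l it made 2 of 10 copies at or above percentile 97 in all 6 lists, which 0.548% of protein-coding genes reached. The cutoffs of 97 here and 99 for Rpl10l lie just below these genes' own lowest percentiles, 97.1 and 99.0. The shares of genes reaching them are therefore only descriptive. The peak covered the start in 5 libraries, from 419 to 483 bp before it to 625 to 720 bp after it, and lay 55 to 429 bp after the start in wild-type replicate 3. The rest of the gene, which is 17224 bp long, had no peak in any library.

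Pdha2 (chromosome 3, 141210004 to 141212355), the germ-cell alpha subunit of pyruvate dehydrogenase, had its peak inside the gene and not at the start. Its peak stood at percentile 99.2, 98.5 and 99.7 in transgenic and 99.8, 99.3 and 70.1 in wild-type replicates 1, 2 and 3. Wild-type replicate 3 was thus far below the other 5 libraries. The peak began 214 to 463 bp after the transcription start. The promoter window, from 250 bases before to 50 after the start, held 4 CpG dinucleotides and no peak in any library.

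Rbmxl2 (chromosome 7, 107209445 to 107210916), a copy of the X-linked splicing factor gene Rbmx that is also named hnRNP G-T, had a peak over its start in all libraries but wild-type replicate 3. There a peak of 184 bp lay 75 to 258 bp after the start. Its highest peak stood at percentile 93.6, 89.0 and 87.8 in transgenic and 92.4, 95.6 and 19.1 in wild-type replicates 1, 2 and 3. A second peak in the rear part of the gene was found in all 3 transgenic libraries and in wild-type replicate 2.

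The alpha-tubulin genes Tuba3a (chromosome 6, 125278270 to 125286081) and Tuba3b (chromosome 6, 145615963 to 145621477) had several peaks each, in a like arrangement. Both had a peak over the start, others in the middle of the gene and one at its end. Over the start, Tuba3a had a peak in all 3 transgenic libraries and in wild-type replicate 2, and Tuba3b in all libraries but wild-type replicate 3. The highest Tuba3b peak stood at percentile 81.8, 87.7 and 74.8 in transgenic and 73.9, 86.7 and 26.2 in wild-type replicates 1, 2 and 3, and that of Tuba3a at 83.4, 71.3 and 83.9 and at 41.3, 69.4 and 9.26. Tubulin genes are close copies of one another, and the sources used here do not say how reads that match more than one copy were assigned. The 300-base promoter windows of this pair were 62.6% identical over 337 aligned columns. The gene bodies, where most of their peaks lay, were not compared, so this value does not show how reads were assigned.

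Ldhc (chromosome 7, 46861263 to 46878147), the sperm lactate dehydrogenase, which lies next to Ldha, had weak and scattered peaks. Transgenic replicate 1 had 3, transgenic replicate 2 had 2 and wild-type replicate 2 had 2, while the other 3 libraries had none. A peak over the start was found only in transgenic replicates 1 and 2, at percentiles 23.0 and 54.2. These are the libraries with the longest lists.

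Pgk2 (chromosome 17, 40207018 to 40208609), the sperm phosphoglycerate kinase of glycolysis, and Gk2 (chromosome 5, 97455130 to 97457023), a glycerol kinase copy, had no peak in any library. Cstf2t (chromosome 19, 31082841 to 31086592), a copy of the cleavage stimulation factor gene Cstf2 that lies inside the span of Prkg1, had none either. Lack of a peak says that capture was not detectable at this depth, not that these genes lacked methylation. The promoter windows of Pgk2 and Gk2 held 4 and 5 CpG dinucleotides and that of Cstf2t 26.

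Promoter CpG number alone did not sort the copies with promoter peaks from those without. A peak touched the promoter window in 6 libraries for Rpl10l, in 5 for Slc25a31, Tuba3b and Rbmxl2, in 4 for Tuba3a and in 2 for Ldhc. The contact at Rpl10l was 15 bases in wild-type replicate 3 and 241 to 294 bases in the others. The 5 copies with a promoter peak in 4 or more libraries had 12 to 29 CpG dinucleotides there, a range that also holds Cstf2t, which had none. Over 21263 RefSeq promoter windows of protein-coding genes the median was 13 CpG dinucleotides. Windows with under 12 of them had a peak in at least 1 library more often than those with 12 or more, at 8.31% against 5.40%. For a peak in all 6 libraries the shares were 0.249% and 0.605%. A promoter peak in 5 or more libraries was found at 4 of 10 copies, 0 of 13 somatic parents, 2 of 19 other testis-expressed copies (Rpl39l and Taf7l, looked up after their values were seen) and 1.5% of 17492 protein-coding genes with a promoter in the table. No promoter peak in any library was the usual state, at 92.2% of these genes. Since the copies were chosen with earlier results of these data known, their larger share is only descriptive.

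**Figure D2:**
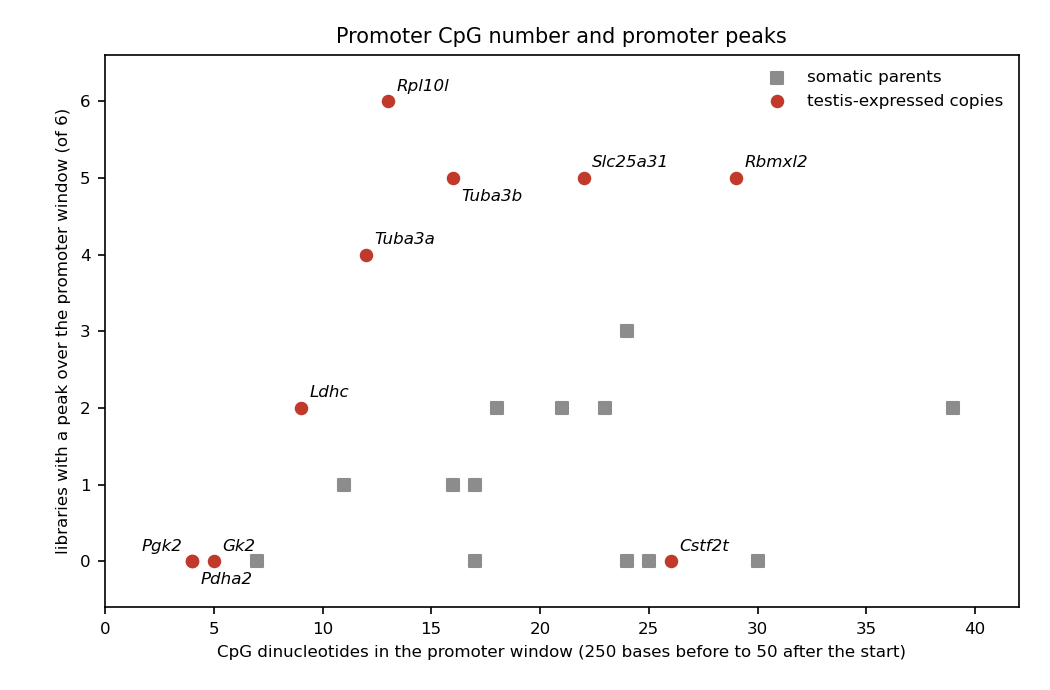
Number of libraries with a peak over the promoter window (of 6) against the number of CpG dinucleotides in that window, for 10 copies (circles) and 13 somatic parents (squares), each at its first listed start. Rpl10l, Slc25a31, Tuba3b and Rbmxl2 sit at 5 or 6 libraries, and Cstf2t, with 26 CpG dinucleotides, sits at 0 beside several parents.

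Some germline promoters that are silenced in somatic cells are known to hold the core site of E2F6, a repressor of the E2F family. The letters TCCCGC, on either strand, were found in the 300-base promoter windows of 6 copies (Rpl10l, Slc25a31, Tuba3a, Tuba3b, Rbmxl2 and Cstf2t), 5 of 13 parents and 25.8% of 21263 promoter windows. The match began 43 bases before the start in Rpl10l, 119 in Tuba3a, 106 in Tuba3b and 61 in Rbmxl2, and at base 21 after the start in Slc25a31. Cstf2t, without a peak, had a match at 190 and another at 55 bases before the start, the second overlapping a GC box. Of the 19 other testis-expressed copies with a promoter window, only Cyct, Utp14b and Cox7b2 had a match. Rpl39l and Taf7l, with promoter peaks in 5 and 6 libraries, had none. The full cAMP response element TGACGTCA, which is bound by the spermatid activator CREM, was found in 0 copies, 1 parent (Ldha) and 2.23% of windows. The GC box GGGCGG was found in 6 copies, 9 parents and 46.2% of windows. These are matches of letters and not measured binding.

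The question of the study's design is where methylation differed between transgenic and wild-type lung. Since scores are not scaled between lists, the bases of each window covered by peaks were compared, and a gene was called when all 3 libraries of one group lay above all 3 of the other. Rpl10l and Rbmxl2 were called, both with more covered bases in the transgenic libraries, and no copy was called the other way. Among all protein-coding genes 4.99% were called with transgenic above wild type (5.23% of autosomal ones) and 0.0137%, or 3 genes, the other way. That last count was 178 genes without wild-type replicate 3. Every call has p = 0.10 in the two-sided exact permutation test, the smallest that 3 against 3 can give, and the adjusted p of both copies over all protein-coding genes was 0.90 (exact permutation test, Benjamini-Hochberg adjustment). No copy therefore passed a test of difference between the groups.

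At Rbmxl2 peaks covered 1304, 1290 and 1429 bp in transgenic and 624, 1177 and 184 bp in wild-type replicates 1, 2 and 3. The means were 1341 ± 76.5 and 662 ± 498 bp (SD, n = 3 each), and the groups did not overlap. At Rpl10l the values were 942, 1013 and 954 bp against 909, 935 and 528 bp, with means of 970 ± 38.0 and 791 ± 228 bp (SD, n = 3 each). The groups did not overlap there either, but wild-type replicate 2 lay within a few bases of transgenic replicate 1, and within the gene span alone Rpl10l was no longer called.

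The other copies with peaks overlapped between the groups. Slc25a31 had 1166, 1073 and 1151 bp in transgenic and 1075, 1163 and 375 bp in wild-type replicates, so that only wild-type replicate 3 stood apart. Pdha2 had 1363, 876 and 914 bp against 821, 1068 and 227 bp. In Pdha2 wild-type replicate 2 lay above transgenic replicates 2 and 3. Tuba3a had 3275, 2244 and 2343 bp against 655, 3065 and 260 bp. Tuba3b had 2494, 1679 and 1867 bp against 1355, 2026 and 240 bp. In both tubulin genes wild-type replicate 2 lay within the transgenic range and the other wild-type libraries below it. Ldhc had 1143, 546 and 0 bp against 0, 473 and 0 bp. The exact permutation p of these 5 genes was 0.30 to 0.50, and their adjusted p 0.90 to 0.99. Over the 10 copies the median difference of means, transgenic minus wild type, was 302 bp, and over all protein-coding genes it was 223 bp. Without wild-type replicate 3, the shortest list, these medians were 77.1 and 78.2 bp. When only the 30640 highest-scoring peaks of each list were kept, the medians were 89.5 and 0 bp. The difference of means at Tuba3b then turned from 806 to -84 bp, that at Tuba3a went from 1294 to 552 bp and that at Ldhc from 405 to 0 bp. At Rpl10l, Slc25a31 and Pdha2 it stayed at 179, 259 and 346 bp, and at Rbmxl2 it went from 679 to 642 bp. The part of list length in these values was not tested. Without wild-type replicate 2, which has the longest wild-type list, 5 of 10 copies and 41.3% of all protein-coding genes were called with transgenic above wild type.

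**Figure D3:**
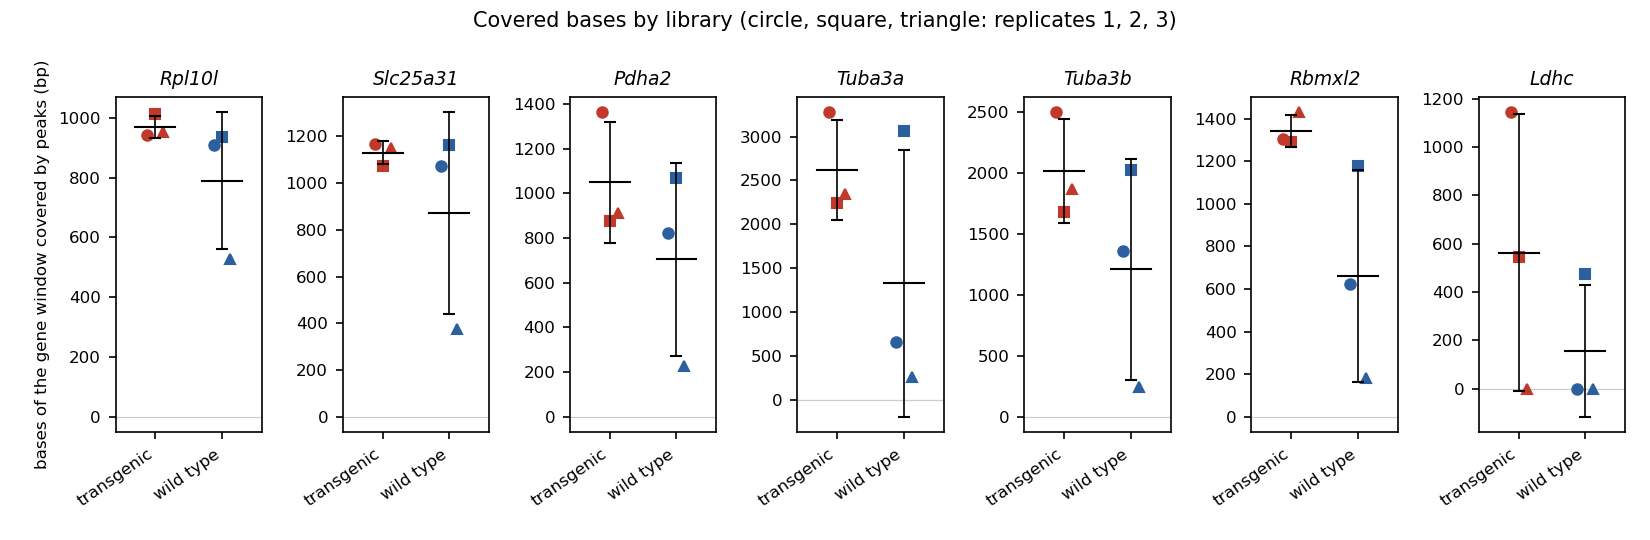
Bases of the gene window covered by peaks (bp) in each library at the 7 copies with peaks. Circles, squares and triangles are replicates 1, 2 and 3, the horizontal line is the mean and the bar the SD (n = 3). Wild-type replicate 3 is the lowest wild-type library at each gene (tied at 0 bp with replicate 1 at Ldhc), and only Rpl10l and Rbmxl2 have groups that do not overlap.

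None of the 407 regions in the authors' deposited table of differential regions lay in the window of a copy. Of all protein-coding genes 0.763% had one in their window, so that a count of 0 among 10 says little about the copies. The peaks at the copies merged into 16 regions, 14 of them with a peak in 3 or more libraries. The listed region nearest to any copy lay 635904 bp from Cstf2t, and the authors' deposited table gives it a log2 fold of 0.44.

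The somatic parents of these copies showed another pattern of peaks. Parent here means a paired somatic gene of the same family, whether or not the copy arose from it. Slc25a4 and Slc25a5 were paired with Slc25a31, Tuba1a, Tuba1b and Tuba1c with both Tuba3 genes, and Ldha and Ldhb with Ldhc. All 13 parents had a peak in at least 1 library, and 0 of 13 had one in all 6, against 6 of 10 copies (2 of 10 with peaks scoring at least the pooled median). The number with a peak was 10, 12 and 4 in transgenic and 4, 13 and 3 in wild-type replicates 1, 2 and 3, a wider spread than the 6 or 7 copies. None of the parents' peaks reached percentile 95 of its list in any library, while 2 to 4 copies did so in each. Among the 13 parents, 2 (Tuba1b and Ldha) were called with transgenic above wild type and none the other way, beside 4.99% and 0.0137% of all protein-coding genes.

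Of the 13 parents 7 lie on the X chromosome, namely Rpl10, Slc25a5, Pgk1, Pdha1, Gk (glycerol kinase, also named Gyk), Rbmx and Cstf2. Among these, 4, 7 and 0 had a peak in transgenic and 2, 7 and 2 in wild-type replicates 1, 2 and 3. A peak over the promoter window was found at 0, 4 and 0 of them in transgenic and at 1, 6 and 0 in wild-type libraries. Over all 966 protein-coding genes of the X chromosome, 39.2%, 69.2% and 28.4% had a peak in transgenic and 46.7%, 68.5% and 25.6% in wild-type replicates 1, 2 and 3. For autosomal genes the shares were 69.5%, 68.2% and 60.4% in transgenic and 53.1%, 67.4% and 32.5% in wild-type replicates. The X share lay furthest below the autosomal one in transgenic replicates 1 and 3. The 6 autosomal parents had a peak at 6, 5 and 4 of 6 in transgenic and at 2, 6 and 1 of 6 in wild-type libraries. The X-linked parents thus most often had a peak in the same 2 libraries, replicate 2 of each group, in which X genes had most. At 1.67% and 1.86%, transgenic replicates 1 and 3 had a larger share of their peaks on the Y chromosome than the other libraries, at 0.599% to 0.911%. No wild-type library was like these, so the X and Y shares were not even between the groups. The part of X and Y content in the parents' peaks was not tested.

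Pair by pair, Rpl10l, Slc25a31, Pdha2 and Tuba3b stood at a higher percentile than each of their parents in all 6 libraries, Tuba3a in all but wild-type replicate 1 and Rbmxl2 in all but transgenic replicate 2. Rpl10l had its peak at percentile 99.0 or above in each list, while Rpl10 had none in 3 libraries and percentiles of 14.4, 61.2 and 21.6 in transgenic replicate 2 and wild-type replicates 2 and 3. Rbmx had a peak in 3 of 6 libraries, the highest at percentile 93.0 in transgenic replicate 2, where Rbmxl2 stood at 89.0. Pdha1 had peaks only in replicate 2 of each group, at percentiles 39.2 and 89.1. The order was turned for Pgk2, Gk2 and Cstf2t, which had no peak while Pgk1 had one in 5 libraries, Gk in 2 and Cstf2 in 3. Ldhc too lay below Ldha in the 4 libraries where either had a peak. Percentiles were 48.3, 54.2 and 30.5 against 53.1, 59.9 and 60.6 in transgenic replicates 1 and 2 and wild-type replicate 2. In transgenic replicate 3 Ldhc had no peak and Ldha stood at 65.2. Ldhc lay below Ldhb in the same libraries except transgenic replicate 2, where Ldhb stood at 48.9. Pgk1 has many processed copies in the genome, which can share reads with it. Rpl10l and the other copies may likewise share reads with their parents, and how such reads were assigned is not given.

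**Figure D4:**
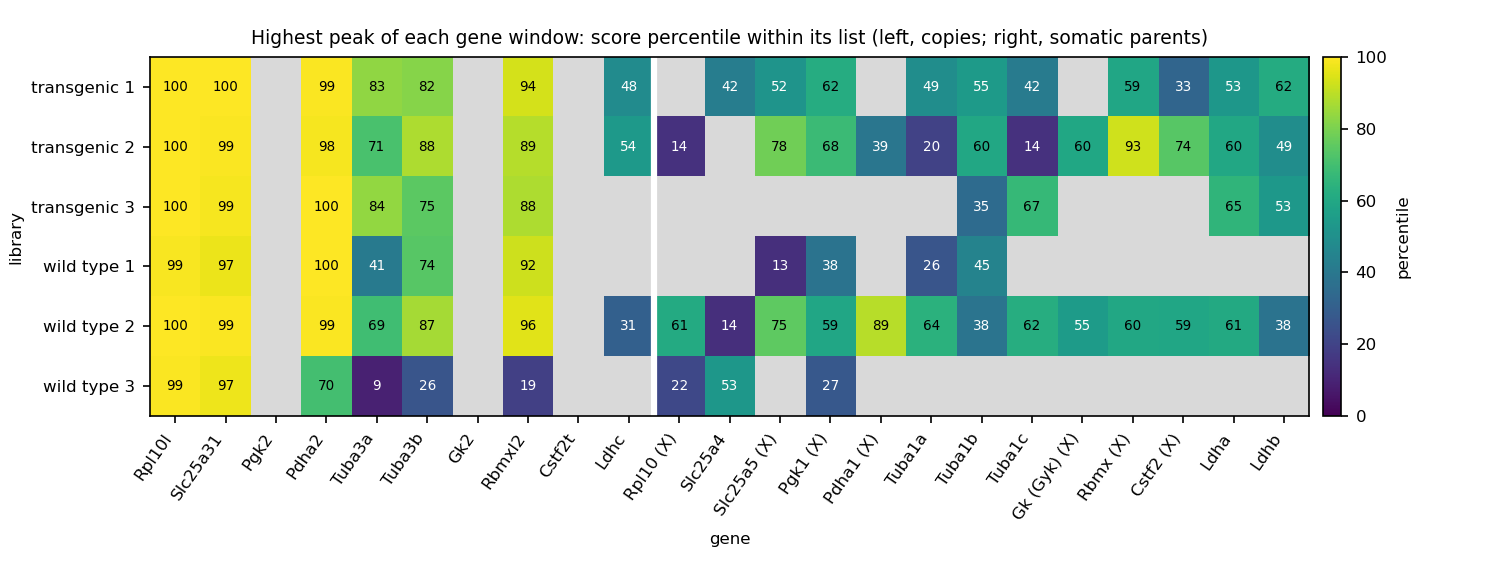
Percentile, within its list, of the highest-scoring peak in the window of each of 10 copies (left of the white line) and 13 somatic parents (right), by library. Grey marks no peak, and (X) marks a gene on the X chromosome. Rpl10l and Slc25a31 stand at 97 or above in all 6 libraries, while the X-linked parents have a peak mainly in replicate 2 of each group.

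A list of 24 other testis-expressed copies and isoforms was examined in the same way. A peak in all 6 libraries was found at 7 of 24 and in none at 5, beside 28.2% and 26.3% of all protein-coding genes. Many of the 24 span at most 5000 bp, and over all protein-coding genes that short these shares were 6.71% and 61.9%. In the comparison of the groups 0 of 24 were called in either direction, beside 4.99% and 0.0137%. The 4 with peaks in all libraries and the highest median percentiles were Hspa1l, a heat-shock protein gene (median percentile 98.0), Cox7b2, a cytochrome oxidase subunit gene (97.5), Taf7l, a germ-cell transcription factor gene on the X chromosome (93.1), and Cetn1, a centrin gene (91.7). Rpl10l and Slc25a31 had median percentiles of 99.8 and 99.0. Of the 24, 0 stayed at or above percentile 97 in all 6 lists, a cutoff just below the lowest percentile of Slc25a31. The highest lowest percentile among the 24 was 90.0, of Hspa1l.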

How the data were processed

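The submitters' processing notes name Bowtie, DiffBind and edgeR, without versions or settings, and the build mm10. The authors called peaks library by library, with names of the MACS form, per the deposited lists. The deposited score of each peak starts at 50 in every list and is not scaled between libraries. It was used to rank peaks within a list and, in an alternative run, as a common cutoff of 96.3. Median scores ran from 70.6 in wild-type replicate 3 to 127 in transgenic replicate 1, so that cutoff kept unequal shares of the lists. The authors' deposited table gives log2 concentrations and folds of 407 regions with their p-value and FDR, up to 0.0996, per the file headers. Distances of these regions to genes and CpG islands, in the authors' deposited annotation tables, were not used.

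Gene spans and promoter sequences came from RefSeq (GRCm38.p6), and all 10 copies, 13 parents and 24 other copies were matched. Exons, introns and UTRs were not resolved. A window was the gene span plus 1000 bp on each side, and an overlap of 1 bp counted. A percentile is a peak's rank in its list, counted from the lowest score, as a percentage. Tied peaks were given their mean rank. Covered bases were compared for 21887 genes with Python 3.11.15 by two-sided exact permutation tests, adjusted by the Benjamini-Hochberg method. The code of that comparison was run on simulated data, in which 200 of 200 planted genes were recovered among 21887. The planted differences were far larger than the simulated spread, and the simulated libraries were alike. Recovery was thus assured, and the run does not measure power on these unequal lists. The members and lists were chosen with earlier results of these data known. All copies and parents are named, and of the other copies the 4 with peaks in most libraries, ties by median percentile. Alternatives were other windows, peak thresholds and overlaps, other gene sets, a replicate block and leaving out each library. The labels give the samples as biological replicates. Read depth is unknown.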

Additional observations from a re-analysis of the deposited data

How the results depend on the processing

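The call of Rbmxl2 held with each other window, peak threshold and overlap. That of Rpl10l held in all of these but the gene span alone, which left 1 called copy. Leaving out a library, or using the replicate block, cannot undo a call made with all libraries. Those runs could only keep or add called copies. Leaving out 1 library gave 2 to 5 called copies, and over all protein-coding genes 1234 to 9053 called genes against 1096. The high ends were reached without wild-type replicate 2, when Pdha2, Tuba3a and Tuba3b were called too. Without wild-type replicate 3, 178 genes were called with wild type above transgenic, against 3. Without transgenic replicate 3, 3 copies (Ldhc too) and 5572 genes were called. Other gene sets gave 129 (span of at most 5000 bp) and 2098 (all RefSeq genes) called genes. Keeping only the 30640 highest-scoring peaks of each list gave 960 called genes, of which 877 had transgenic above wild type, and the same 2 copies, and turned the difference at Tuba3b to -84 bp. With peaks scoring at least the pooled median (96.3) or with promoter windows alone, the latter chosen after seeing the data, the transgenic lists held 2.33 more copies with a peak than the wild-type lists, against 0.333. Peaks at or above that score were found in all 6 libraries at 2 copies and 0 parents, against 6 and 0. That cutoff is a raw score, which is not scaled between lists. The cause of these shifts was not tested, apart from the fewer or more genes and libraries that some alternatives compare by construction. Whether the replicate numbers carry a pairing is not given in the labels. Deviations of same-numbered libraries correlated at -0.046, 0.045 and 0.059 across genes, and those of differently numbered ones at -0.13 to 0.098. With 3 libraries a group these values cannot settle it. With the replicate block, in which a gene is called when every same-numbered pair differs the same way, 2 copies and 5646 genes were called. With unknown depth and 3 animals a group, no single gene can pass the test.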
